A study of Rattus norvegicus with 6 samples.

Results

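The genes described here are 10 components of lytic cell death, namely Nlrp3, Pycard, Casp1, Casp4, Gsdmd and Il18 of pyroptosis and Casp8, Ripk1, Ripk3 and Mlkl of necroptosis. They were read by gene name from the 18077 rows of the count tables, where each of the 10 names occurs in 1 row. PolyA RNA of 6 rat cultures labelled neonatal rat cardiomyocytes was sequenced. The labels give 3 libraries as Ad-RNF128, an adenovirus labelled with the ubiquitin ligase gene RNF128, and 3 as Ad-GFP, an adenovirus with green fluorescent protein. In all 6 libraries, per the labels, the cells came from hearts of pups aged 1 to 3 days, were exposed to palmitic acid, a saturated fatty acid, at 500 µM for 24 h, and were harvested after 48 h. The labels name no separate litters or cultures, so p-values measure the spread between the sequenced samples alone, and that spread may be technical.

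Pyroptosis is a lytic death in which sensor proteins such as NLRP3 assemble an inflammasome with the adaptor ASC, the product of Pycard, and activate caspase-1. Caspase-1 matures interleukin-18 and cuts gasdermin D, whose released fragment forms pores in the plasma membrane, and caspase-4, called caspase-11 in rodents, cuts gasdermin D after binding bacterial lipopolysaccharide. Necroptosis runs from death receptors or nucleic acid sensors through the kinases RIPK1 and RIPK3 to the membrane-disrupting protein MLKL, and caspase-8 holds this route in check. All of these proteins are controlled after translation, so that a transcript level does not tell whether a cell was dying.

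Totals ran from 16352843 to 21708973 counts per library, and values are CPM, a gene's count scaled to a library total of 1000000. Ad-GFP replicate 1 stood apart from the other 5 libraries. Of the 13173 genes that could be tested without it, 51.9% were at least 2-fold lower in it than the mean of Ad-GFP replicates 2 and 3, and 17.0% at least 2-fold higher, both on (CPM + 1). It is therefore shown separately, and each comparison is given against Ad-GFP replicates 2 and 3 and against all 3 Ad-GFP libraries. The gene named in the labels had few reads. Rnf128 had 1, 3 and 1 counts in the libraries labelled Ad-RNF128, and 0, 2 and 1 counts in Ad-GFP, while Rnf157, another RING ubiquitin ligase gene that was chosen after its values were seen, was at 1923, 2553 and 2090 CPM in the libraries labelled Ad-RNF128, and at 22.3, 39.6 and 40.4 CPM in Ad-GFP. All directions below are those of the libraries labelled Ad-RNF128, a label that the counts on Rnf128 do not bear out. Whether reads of the adenoviral gene would be counted on the rat Rnf128 row was not tested. Most cardiomyocyte markers were low, with 12 of the 16 that have a row at or below 17.5 CPM in every library, and Tnnt2, Tnnc1, Nkx2-5 and Gata4 above that in at least 1. The troponin T gene Tnnt2 was at 57.4, 42.3 and 34.02 CPM in the libraries labelled Ad-RNF128, and at 13.3, 342 and 350.4 CPM in Ad-GFP replicates 1, 2 and 3. The cardiac transcription factor gene Gata4 was at 21.0 to 21.8 CPM in the libraries labelled Ad-RNF128, and at 12.1 to 28.1 CPM in Ad-GFP. The cardiac myosin genes Myh6 and Myh7 were at 14.3, 10.8 and 0.104 CPM and at 13.6, 10.2 and 0.0519 CPM in replicates 1 to 3 labelled Ad-RNF128, and between 10.8 and 16.0 CPM in Ad-GFP. The skeletal muscle regulator Myod1 was at 25.3 to 32.7 CPM in the libraries labelled Ad-RNF128, and at 50.5 to 63.3 CPM in Ad-GFP. Another skeletal myoblast marker, Mymk, was at 4.10 to 5.09 CPM, and at 8.93, 1.72 and 1.69 CPM in Ad-GFP replicates 1, 2 and 3. In such bulk samples fewer cells of a type and less RNA per cell cannot be told apart.

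RefSeq promoter windows of the rat build GRCr8, from 250 bases before to 50 bases after the start, were found for 7 of the 10 genes, and not for Casp4, Casp8 and Gsdmd. They were searched on both strands for the core of the interferon-stimulated response element, which is GAAA followed by 2 bases of any kind and GAAA, the gamma-activated site bound by STAT factors (TTCNNNGAA) and the NF-kB consensus decamer. The interferon element was held by 3.92% of the 33469 promoters in the table, the gamma-activated site by 8.87% and the decamer by 4.18%. Casp1 held 1 match to the interferon element, on the opposite strand, and Nlrp3 held 1 gamma-activated site. The windows of Pycard, Il18, Ripk1, Ripk3 and Mlkl held none of the 3. The windows of Nlrp3 (chr10:44827848-44828147, plus strand), Casp1 (chr8:10872580-10872879, plus strand) and Mlkl (chr19:56213809-56214108, minus strand) are printed. Those of Nlrp3 and Casp1 hold the matches. That of Mlkl belongs to the tested member with the largest log2 change against Ad-GFP replicates 2 and 3. Capitals mark the match, which begins at position -121 from the start in Nlrp3 and at position -28 in Casp1.
Nlrp3: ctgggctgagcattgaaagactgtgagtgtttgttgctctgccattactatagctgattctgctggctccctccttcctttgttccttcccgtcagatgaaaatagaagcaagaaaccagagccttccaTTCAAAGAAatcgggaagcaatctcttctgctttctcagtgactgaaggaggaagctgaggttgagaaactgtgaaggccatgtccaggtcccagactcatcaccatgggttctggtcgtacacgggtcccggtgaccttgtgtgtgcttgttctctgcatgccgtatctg
Casp1: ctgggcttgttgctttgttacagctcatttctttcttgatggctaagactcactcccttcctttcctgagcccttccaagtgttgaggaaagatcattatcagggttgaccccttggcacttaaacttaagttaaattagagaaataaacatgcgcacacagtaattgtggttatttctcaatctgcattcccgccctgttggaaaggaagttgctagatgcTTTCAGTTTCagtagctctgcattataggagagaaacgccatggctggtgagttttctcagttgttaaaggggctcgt
Mlkl: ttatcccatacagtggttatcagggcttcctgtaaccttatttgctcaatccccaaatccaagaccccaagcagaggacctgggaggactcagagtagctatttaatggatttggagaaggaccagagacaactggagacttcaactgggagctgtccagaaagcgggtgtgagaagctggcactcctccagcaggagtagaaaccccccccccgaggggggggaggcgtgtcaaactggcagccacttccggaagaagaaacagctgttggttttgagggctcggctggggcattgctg

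Against Ad-GFP replicates 2 and 3, 5 of the 10 genes rose in the libraries labelled Ad-RNF128 and none fell. The necroptosis executor Mlkl and the caspase gene Casp4 rose most, by log2 changes of 1.44 ± 0.07 and 1.42 ± 0.10 (SE), followed by the adaptor gene Pycard, the sensor gene Nlrp3 and the kinase gene Ripk3. Gsdmd, Casp8 and Ripk1 did not pass the threshold, an edgeR quasi-likelihood adjusted p of 0.05 over all genes tested. Casp1 and Il18 had too few reads for the low-count filter and were not tested. Over all genes tested in this comparison, 56.9% passed in either direction and 28.9% rose, beside 62.5% of the 8 tested members, which is 5 of 8. The split of calls over all genes was 3812 higher and 3689 lower, and with library totals in place of TMM 5354 higher and 2411 lower. The median log2 change of the 8 tested members was 0.61, beside 0.01 over all genes tested. A rise of at least 2-fold was seen in 2 of the 8, beside 8.66% of all genes tested.

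**Figure D1:**
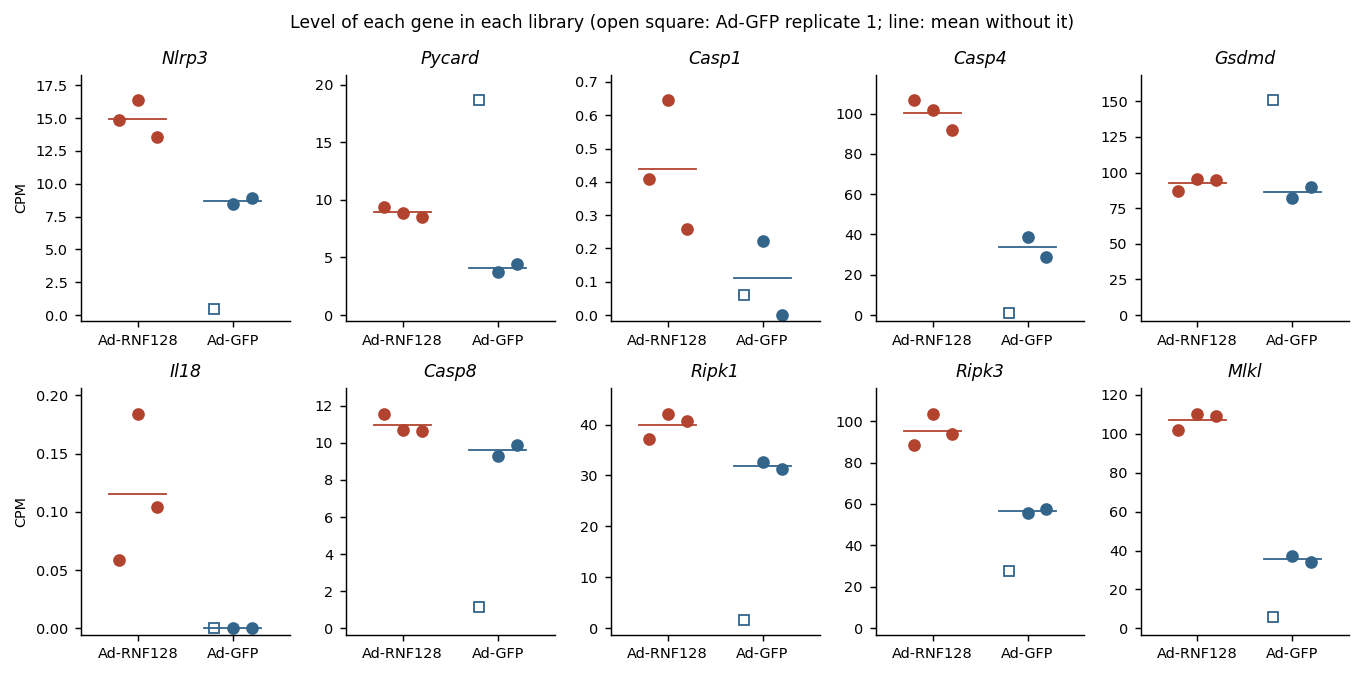
CPM of the 10 genes in each library, with Ad-RNF128 left of Ad-GFP in each panel. Circles are libraries, the open square is Ad-GFP replicate 1, and lines are means without that library. For Mlkl the 3 libraries labelled Ad-RNF128 sit between 102 and 110.4 CPM, above the Ad-GFP libraries at 5.75, 37.1 and 34.2 CPM.

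The sensor and its adaptor both rose. Nlrp3 (ENSRNOG00000003170) was at 14.9, 16.4 and 13.6 CPM in the libraries labelled Ad-RNF128, against 8.48 and 8.91 CPM in Ad-GFP replicates 2 and 3 and 0.489 CPM in Ad-GFP replicate 1. All 3 libraries labelled Ad-RNF128 were thus above every Ad-GFP library. Its log2 change was 0.63 ± 0.12 (edgeR adjusted p = 0.000486), a 1.72-fold difference of mean CPM. Pycard (ENSRNOG00000019675), which joins the sensor to the caspase through its pyrin and CARD domains, was at 9.36, 8.89 and 8.52 CPM, against 3.77 and 4.41 CPM in Ad-GFP replicates 2 and 3. Ad-GFP replicate 1 held it at 18.7 CPM, above every other library, so the full groups overlapped. The log2 change of Pycard without that library was 0.96 ± 0.15 (edgeR adjusted p = 7.75e-05), and with it -1.09 ± 1.01 (adjusted p = 0.787).

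The inflammatory caspases differed in level and in how well they could be measured. Casp4 (ENSRNOG00000033697) was at 107, 102 and 92.0 CPM in the libraries labelled Ad-RNF128, against 38.9 and 28.7 CPM in Ad-GFP replicates 2 and 3 and 1.22 CPM in Ad-GFP replicate 1. It averaged 100.2 ± 7.46 CPM in the libraries labelled Ad-RNF128 (SD, n = 3), 2.96-fold higher than in Ad-GFP replicates 2 and 3. The groups did not overlap, and without Ad-GFP replicate 1 the adjusted p of edgeR was 2.08e-08. Casp1 (ENSRNOG00000007372) had 7, 14 and 5 counts in the libraries labelled Ad-RNF128, against 1, 4 and 0 counts in Ad-GFP replicates 1, 2 and 3. The ratio of its summed counts per total was 4.41 against replicates 2 and 3, with a 95% counting interval of 1.53 to 17.4, and 4.99 (1.89 to 16.7) against all 3 controls. These intervals cover counting error only. With no low-count filter Casp1 had a log2 change of 1.90 ± 0.82 (edgeR adjusted p = 0.0626). It passed the filter when Ad-GFP replicate 2 or 3 was left out, with adjusted p values of 0.016 without replicate 2, where the remaining control had 0 counts, and 0.432 without replicate 3, so that a call rested on which control was kept.

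Neither Gsdmd, the pore-forming substrate of these caspases, nor Il18 gave a call. Gsdmd (ENSRNOG00000007728) was at 87.3, 95.6 and 94.8 CPM in the libraries labelled Ad-RNF128, against 82.4 and 90.0 CPM in Ad-GFP replicates 2 and 3, and the groups overlapped. Its log2 change was -0.05 ± 0.08 (edgeR adjusted p = 0.579). Ad-GFP replicate 1 held Gsdmd at 151 CPM, and with it the log2 change was -1.07 ± 0.65 (adjusted p = 0.681). Il18 (ENSRNOG00000009848), which encodes the cytokine that caspase-1 matures, had 1, 4 and 2 counts in the libraries labelled Ad-RNF128, and 0 counts in each Ad-GFP library. A count of 0 allows up to 0.183, 0.166 and 0.141 CPM in Ad-GFP replicates 1, 2 and 3. The lower end of the 95% counting interval of the ratio of its summed counts per total was 1.38 against the 3 Ad-GFP libraries and 0.978 against replicates 2 and 3. A difference from replicates 2 and 3 alone was thus not detectable at this depth.

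In the necroptosis arm Ripk3 and Mlkl rose, while Ripk1 and Casp8 did not pass. Ripk1 (ENSRNOG00000017787), the kinase that starts the route, was at 37.1, 42.2 and 40.7 CPM in the libraries labelled Ad-RNF128, against 32.7 and 31.2 CPM in Ad-GFP replicates 2 and 3 and 1.59 CPM in replicate 1. These CPM values did not overlap, and the log2 change was 0.17 ± 0.08 (edgeR adjusted p = 0.0765). Scaling by library totals only gave 0.33 (adjusted p = 0.00344). Leaving out replicate 1 labelled Ad-RNF128 gave 0.24 (adjusted p = 0.0312). Ripk3 (ENSRNOG00000020465), which phosphorylates MLKL, was at 88.6, 104 and 94.0 CPM, against 55.6 and 57.4 CPM in Ad-GFP replicates 2 and 3 and 27.5 CPM in replicate 1. The groups did not overlap, and the log2 change of Ripk3 was 0.60 ± 0.08 (edgeR adjusted p = 1.32e-05). Mlkl (ENSRNOG00000042353) was at 102, 110.4 and 109 CPM, against 37.1 and 34.2 CPM in Ad-GFP replicates 2 and 3 and 5.75 CPM in replicate 1. The groups did not overlap. Mlkl averaged 107 ± 4.61 CPM in the libraries labelled Ad-RNF128 (SD, n = 3), 3.01-fold higher than in replicates 2 and 3 (edgeR adjusted p = 4.85e-10). Whether the log2 changes of these genes differ from each other was not tested.

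Casp8 encodes the protease that cuts RIPK1 and RIPK3. Casp8 (ENSRNOG00000012331) was at 11.6, 10.7 and 10.7 CPM in the libraries labelled Ad-RNF128, against 9.31 and 9.89 CPM in Ad-GFP replicates 2 and 3 and 1.16 CPM in replicate 1. These CPM values did not overlap, yet the log2 change after scaling was 0.03 ± 0.12 (edgeR adjusted p = 0.826). In all, 7 of the 8 tested members had every library labelled Ad-RNF128 above Ad-GFP replicates 2 and 3, beside 48.7% of all genes tested, of which 72.3% had groups that did not overlap in either direction.

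Some members share a stretch of genome with another gene in the RefSeq table of build GRCr8. Whether reads were counted by strand was not given in the sources used here. Casp8 overlaps Cflar, which encodes its inhibitory partner and had a log2 change of 0.24 ± 0.13 (edgeR adjusted p = 0.135). Ripk1 overlaps Serpinb6a, a protease inhibitor gene with a log2 change of 0.22 ± 0.07 (adjusted p = 0.0205). Ripk3 overlaps Nfatc4, at a mean of 42.6 CPM in the libraries labelled Ad-RNF128, and 34.2 CPM in Ad-GFP replicates 2 and 3 (log2 change 0.16 ± 0.08, adjusted p = 0.117). Il18 overlaps Bco2 and Tex12, both at most 0.166 CPM in any library. Nlrp3 and Casp1 each overlap a long noncoding RNA gene, and neither of those genes was found by name among the counts. How reads in the shared stretches were assigned was not tested.

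**Figure D2:**
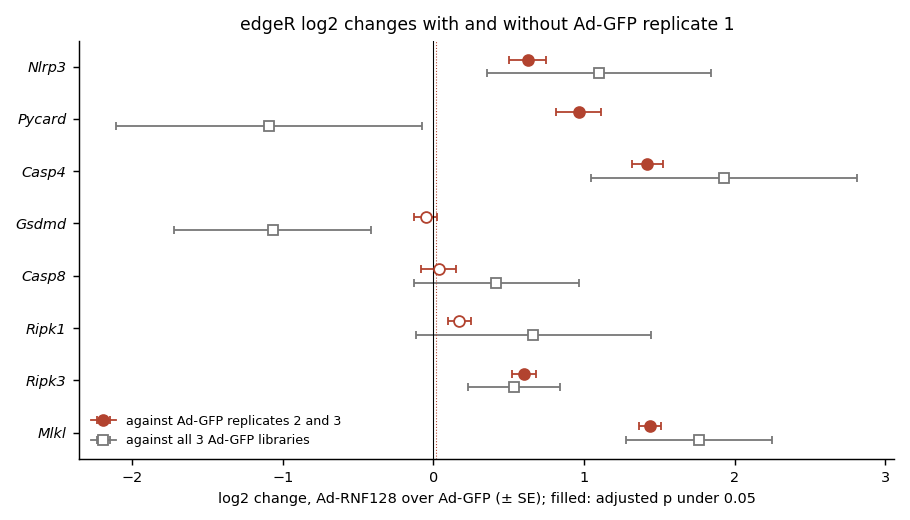
Log2 changes of the 8 tested genes with SE bars, over Ad-GFP replicates 2 and 3 (circles) and over all 3 Ad-GFP libraries (squares). Filled symbols passed the threshold. Pycard lies at 0.96 without Ad-GFP replicate 1 and at -1.09 with it, and the SE of every gene is wider with Ad-GFP replicate 1.

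With all 3 Ad-GFP libraries no member passed in edgeR, where 0% of the 12863 genes tested passed. The number of members with an unadjusted p under 0.05 was 1, Mlkl, with a log2 change of 1.76 ± 0.49 (edgeR adjusted p = 0.432), and 742 of all genes tested had such a p. DESeq2 called Mlkl (log2 change 1.63, adjusted p = 0.00482) and no other member, beside 244 genes higher and 142 lower of the 12863 tested. With limma-voom no member was called, beside 14 genes higher and 0 lower. Of the 8 tested members, 6 had every library labelled Ad-RNF128 above all Ad-GFP libraries, beside 30.4% of all genes tested, while none had every one below, beside 3.59%. Pycard and Gsdmd were the exceptions, with groups that overlapped. Casp4 had a log2 change of 1.93 ± 0.89 (adjusted p = 0.681), Nlrp3 1.10 ± 0.74 (adjusted p = 0.692) and Ripk3 0.54 ± 0.31 (adjusted p = 0.681). The TMM factor of Ad-GFP replicate 1 was 0.47, against 1.08 to 1.22 in the others, and with library totals alone the log2 change was -0.002 for Pycard and -0.22 for Gsdmd.

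Ad-GFP replicate 1 stood apart in both directions among the members. Relative to the mean of Ad-GFP replicates 2 and 3, its CPM was 0.0362 times as high for Casp4, 0.0498 for Ripk1, 0.0563 for Nlrp3, 0.121 for Casp8, 0.161 for Mlkl and 0.486 for Ripk3. The ratio was 4.56 for Pycard and 1.75 for Gsdmd. On log2(CPM + 1), the median absolute difference was 2.37 over the 8 tested members, beside 1.80 over all genes tested.

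**Figure D3:**
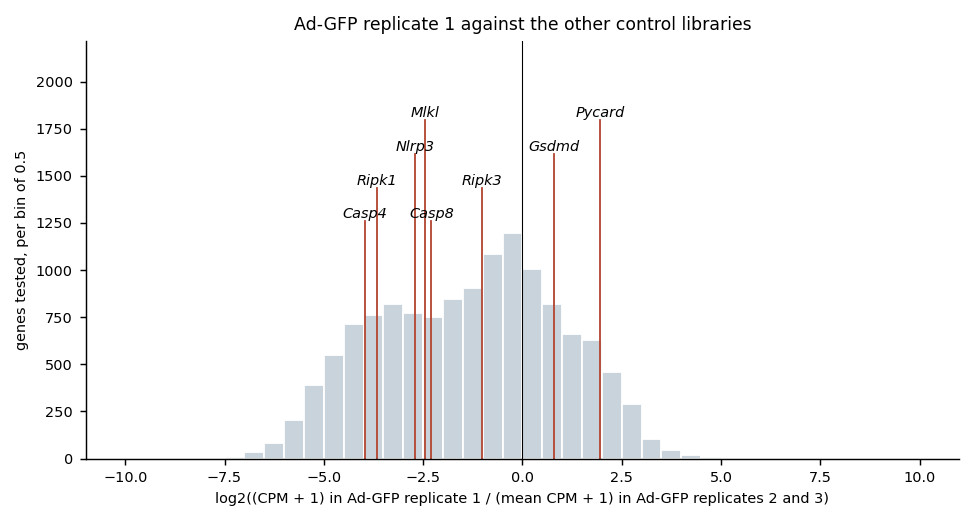
Difference between Ad-GFP replicate 1 and the mean of Ad-GFP replicates 2 and 3 on the log2(CPM + 1) scale. Bars count the 13173 genes tested in bins of width 0.5, and red lines mark the 8 tested members. Pycard (1.95) and Gsdmd (0.80) lie right of 0, and the other 6 lie left of it, down to -3.97 for Casp4.

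The profile most like that of each member over the 6 libraries was sought for the 7 members that spanned at least 1 on log2(CPM + 1), among 10254 genes with a mean of at least 5 CPM, by Euclidean distance between centred log2(CPM + 1) values. The 2 nearest to Mlkl were Ripk2 (distance 0.169), a kinase gene that acts in NOD receptor signalling, and Ipcef1 (0.235). For Ripk3 they were Csf1 (0.106) and Hoxc6 (0.110), and for Ripk1 the interleukin-1 receptor gene Il1r1 (0.100) and Wdr3 (0.108). For Casp4 they were Rasgrp3 (0.174) and Pnpt1 (0.267), for Nlrp3 Jrkl (0.158) and Mrpl30 (0.165), and for Casp8 Stradb (0.080) and Hscb (0.094). The nearest to Pycard was Gstt1 (0.072). All of these profiles share the same 6 libraries, and Ad-GFP replicate 1 holds the lowest or the highest value of each of the 7 members.

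The other genes of both pathways were counted in 7 lists of 77 genes, of which 58 could be tested. Against Ad-GFP replicates 2 and 3, 34 of the 58 rose and 4 fell, beside 28.9% and 28.0% of all genes tested. Over all 6 libraries 0 of the 58 passed in edgeR and 0 in limma-voom. DESeq2 called 5, beside 244 genes higher and 142 lower of the 12863 tested. The values below are against Ad-GFP replicates 2 and 3 unless stated.

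Among inflammasome sensors and licensing factors, 6 of 8 tested genes rose and none fell (median log2 change 1.01). Gbp2, a guanylate-binding protein gene that in mice aids caspase-11 activation, was at 216 to 255 CPM in the libraries labelled Ad-RNF128, against 22.3 and 20.1 CPM (log2 change 3.31 ± 0.09, edgeR adjusted p = 6.67e-13). Gbp5, which in mice promotes NLRP3 assembly, was at 34.3 to 51.7 CPM, against 0.222 and 0.0938 CPM, and Ad-GFP replicate 1 held it at 1.10 CPM. Aim2, a sensor of cytosolic DNA that also recruits ASC, was at 22.4, 22.4 and 16.9 CPM, against 0 counts in both controls, and the 95% counting interval of the ratio began at 219. The level in Ad-GFP replicate 1 was 0.184 CPM. Nek7, the kinase that binds NLRP3 for its activation, had a log2 change of 0.05 ± 0.07 (adjusted p = 0.598). The sensor gene Nlrp1a was at 2.34, 2.76 and 2.81 CPM, against 1.33 and 1.13 CPM (log2 change 0.96 ± 0.25, edgeR adjusted p = 0.00448), and had 0 counts in Ad-GFP replicate 1. Nlrp6, Nlrp10, Nlrc4 and Mefv stayed at or below 0.409 CPM in every library.

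Among gasdermins and genes of membrane rupture and repair, 3 of 6 tested genes rose and none fell (median 0.17). Ninj1, which tears the plasma membrane at the end of lytic death, was at 159 to 176 CPM in the libraries labelled Ad-RNF128, against 71.1 and 77.6 CPM (log2 change 1.02 ± 0.08, edgeR adjusted p = 4.27e-08). Ad-GFP replicate 1 held Ninj1 at 759 CPM, and with that library its log2 change was -2.08 (adjusted p = 0.681). The ESCRT-III genes Chmp2a and Chmp4b, whose products shed damaged membrane, rose by 0.67 ± 0.08 and 0.29 ± 0.07. With Ad-GFP replicate 1 these genes were at -0.38 and -1.51, neither passing. Gsdme, Gsdma and Gsdmc stayed at or below 0.367 CPM in every library. Of the other caspases none of 4 rose and 1 fell (median 0.07). It was the executioner gene Casp6, with a log2 change of -0.50 ± 0.15 (edgeR adjusted p = 0.0126). The CPM values of Casp6 overlapped, at 5.76 to 7.14 against 8.92 and 6.99 CPM. Ad-GFP replicate 1 held it at 1.53 CPM, below every library labelled Ad-RNF128. The call ended with library totals alone (adjusted p = 0.0807), without Ad-GFP replicate 2 (0.137) and without replicate 2 labelled Ad-RNF128 (0.0562).

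In the interleukin-1 family, 4 of 7 tested genes rose and none fell (median 0.36). Il1b, whose product caspase-1 matures, and Il1a were at or below 0.141 CPM in every library. Those that rose were 2 natural inhibitors, Il1rn and Il18bp, and the receptor genes Il1rap and Il18rap. Il1rn, the interleukin-1 receptor antagonist gene, was at 2.28, 2.03 and 3.84 CPM in the libraries labelled Ad-RNF128, against 0.111 and 0.234 CPM (log2 change 3.73 ± 0.49, edgeR adjusted p = 1.26e-05). Without Ad-GFP replicate 3 it was 4.41. Il18bp, whose product binds and blocks interleukin-18, was at 8.67 to 9.07 CPM, against 5.93 and 4.50 CPM (0.61 ± 0.15, adjusted p = 0.00253). Ad-GFP replicate 1 held Il1rn at 1.28 CPM and Il18bp at 7.03 CPM. Il1rap, the shared receptor subunit, rose by 0.57 ± 0.10, and Il18rap by 0.36 ± 0.12 (edgeR adjusted p = 0.0168).

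Among death receptors, their ligands and nucleic acid routes, 6 of 7 tested genes rose and 1 fell (median 0.95). Tnf, the death receptor ligand that can start necroptosis, was at 2.28, 3.13 and 1.45 CPM in the libraries labelled Ad-RNF128, against 0 counts in both controls, and at 1.22 CPM in Ad-GFP replicate 1. The counting interval of the ratio to replicates 2 and 3 began at 24.5, and against all 3 controls the ratio was 6.48 (4.03 to 10.9). Its receptor gene Tnfrsf1a fell, at 129 to 144 CPM against 167 and 180.4 CPM (log2 change -0.51 ± 0.07, edgeR adjusted p = 3.37e-05). Ad-GFP replicate 1 held Tnfrsf1a at 109 CPM, below every library labelled Ad-RNF128, so the full groups overlapped. With that library its log2 change was -0.72 ± 0.34 (edgeR adjusted p = 0.681). Faslg, the Fas ligand gene, had 3 counts in the 2 controls, and the ratio of its summed counts was 21.0, with a counting interval of 6.98 to 104. Its log2 change of 4.14 was 7.96 without Ad-GFP replicate 2 and 3.10 without replicate 3. Faslg had 6 counts in Ad-GFP replicate 1, and against all 3 controls the ratio was 9.92 (5.01 to 22.4) and the log2 change 2.42 (edgeR adjusted p = 0.681). Zbp1, a sensor of Z-form nucleic acids that binds RIPK3, was chosen after its values were seen. It was at 1.58, 2.35 and 0.987 CPM, against 1 count in the 2 controls, a ratio of 65.8 (95% counting interval 11.5 to 2625). Zbp1 had 5 counts in Ad-GFP replicate 1, and against all 3 controls the ratio was 15.5 (6.88 to 43.3).

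Among adaptors and regulators of the RIPK1 complex, 12 of 22 genes rose and 2 fell (median 0.26). The 3 with the smallest p encode proteins known to restrain RIPK1-driven death, and the rest of the list was not sorted by role. Birc3, a ubiquitin ligase gene, was at 16.0 to 19.5 CPM in the libraries labelled Ad-RNF128, against 5.10 and 5.16 CPM (log2 change 1.63 ± 0.13, edgeR adjusted p = 8.73e-08). Tnfaip3, which encodes the ubiquitin-editing enzyme A20, rose by 1.26 ± 0.10 and Rnf31, the catalytic subunit gene of the linear ubiquitin ligase, by 0.94 ± 0.08. Over all 6 libraries the log2 change of Rnf31 was -0.55 and turned to 0.43 with library totals alone. The death adaptor gene Fadd was at 46.8 to 50.02 CPM, against 30.1 and 29.5 CPM. Cyld, Spata2 and Tradd also rose, by 0.42 ± 0.07, 0.47 ± 0.08 and 0.26 ± 0.09. Ad-GFP replicate 1 held Tradd at 71.7 CPM, above every library labelled Ad-RNF128. With that library the log2 change of Tradd was -1.62 ± 0.97 (edgeR adjusted p = 0.681). Xiap and Chuk were those that fell, with log2 changes of -0.305 ± 0.113 and -0.253 ± 0.092 (edgeR adjusted p = 0.032 and 0.0286). The CPM values of Chuk overlapped. Ad-GFP replicate 1 had 0 counts of Xiap and 3 of Chuk, and over all 6 libraries the log2 changes were 0.26 and 0.311, neither passing. Among partners of RIPK3 and MLKL 3 of 4 rose (median 0.28), with Pgam5, a mitochondrial phosphatase gene, at 0.35 ± 0.07, the cyclophilin D gene Ppif at 0.33 ± 0.11, and Camk2d, a calcium-dependent kinase gene that RIPK3 acts through in the mouse heart, at 0.23 ± 0.07. The call on Camk2d ended without Ad-GFP replicate 3 (adjusted p = 0.0608) and that on Ppif without replicate 2 (0.0915) and with DESeq2 (0.0635).

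**Figure D4:**
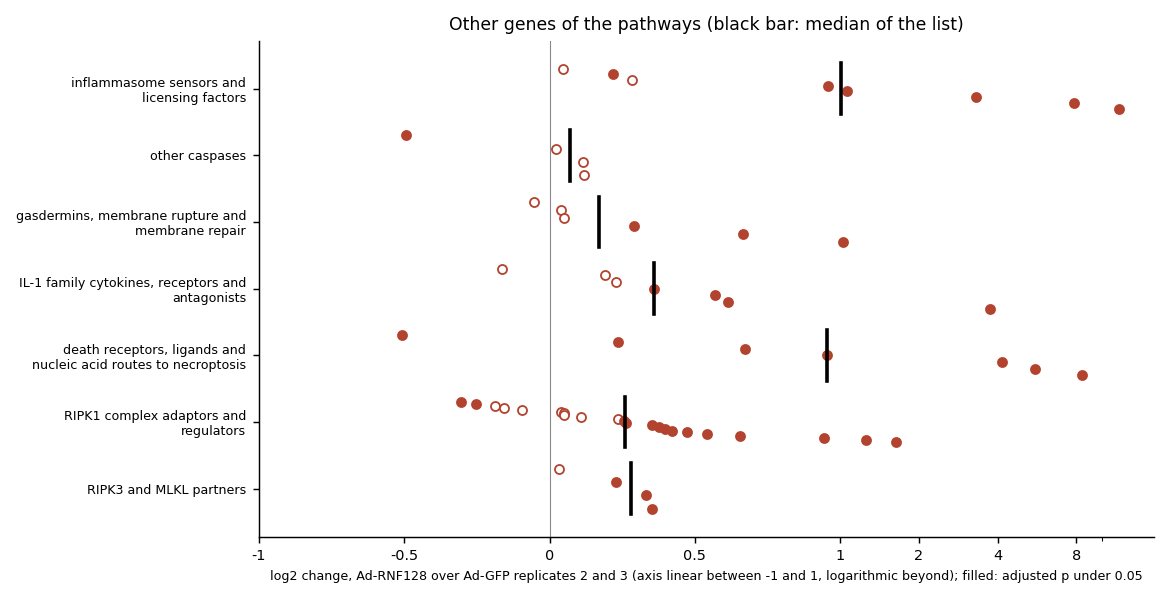
Log2 changes of the 58 tested pathway genes, Ad-RNF128 over Ad-GFP replicates 2 and 3, by list. Each circle is a gene, filled where it passed, and black bars are list medians, the highest at 1.01 for inflammasome sensors and the lowest at 0.07 for other caspases. For genes with 0 control counts the plotted value depends on the prior count of the fit.

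Macrophages carry much of the inflammasome machinery, so their markers were summed. The 13 markers with a row came to 24.1 to 24.6 CPM in the libraries labelled Ad-RNF128, against 17.4 and 18.6 CPM in Ad-GFP replicates 2 and 3 and 35.2 CPM in replicate 1. Cd14 made up most of each sum. Of the 13, 9 were below 1 CPM in every library, among them Ptprc, Adgre1 and C1qa, each at most 0.222 CPM. Of the 5 that could be tested, Csf1r and Cd68 rose, with log2 changes of 2.24 ± 0.33 (edgeR adjusted p = 4.64e-05) and 1.41 ± 0.45 (0.0153). They were at 1.97 to 2.67 CPM and 0.702 to 1.11 CPM in the libraries labelled Ad-RNF128. Cd14, Lyz2 and Fcer1g did not pass. The 3 neutrophil markers with a row summed to at most 0.260 CPM in any library, and the 4 of T and NK cells to at most 2.20 CPM. Cd3e, the only T and NK cell marker tested, fell (log2 change -1.02 ± 0.27, edgeR adjusted p = 0.00538). Fibroblast markers summed to 10540 to 11450 CPM in the libraries labelled Ad-RNF128, against 38420 and 40050 CPM in Ad-GFP replicates 2 and 3. Their sum in Ad-GFP replicate 1 was 3243 CPM, below every library labelled Ad-RNF128. Most of each fibroblast sum was Col1a1 and Col1a2. Cardiomyocyte markers summed to 167 to 275 CPM against 696 and 701 CPM, where Tnnt2 and Tnnc1 made up most of each of these sums. The cardiomyocyte sum in Ad-GFP replicate 1 was 355 CPM. Of the 14 cardiomyocyte markers tested, Tnnt2, Tnnc1 and Myl4 fell, Gata4 rose and 10 did not pass. Endothelial markers, mostly Eng, summed to 155 to 187 CPM against 126 and 129 CPM. Smooth muscle markers came to 5142 to 5726 CPM against 5427 and 6026 CPM, and skeletal myoblast markers to 47.3 to 49.6 CPM against 100 and 103 CPM. Within both lists the genes went both ways. Of the 5 smooth muscle markers tested, Myh11 and Tagln rose while Acta2 and Smtn fell. Of the 6 skeletal myoblast markers tested, Mymk rose, Myod1, Myog, Tnnt3 and Myh3 fell, and Ckm did not pass. In Ad-GFP replicate 1 the endothelial, smooth muscle and skeletal myoblast sums were 53.5, 4827 and 78.15 CPM. The part of any of these cell types in the member values was not tested. Without replicate 3 labelled Ad-RNF128, in which Myh6 and Myh7 were lowest, the same 5 members were called. In the remaining libraries labelled Ad-RNF128 Tnnt2 was at 57.4 and 42.3 CPM, against 342 and 350.4 CPM in Ad-GFP replicates 2 and 3. That fit therefore does not test the part of cell types.

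**Figure D5:**
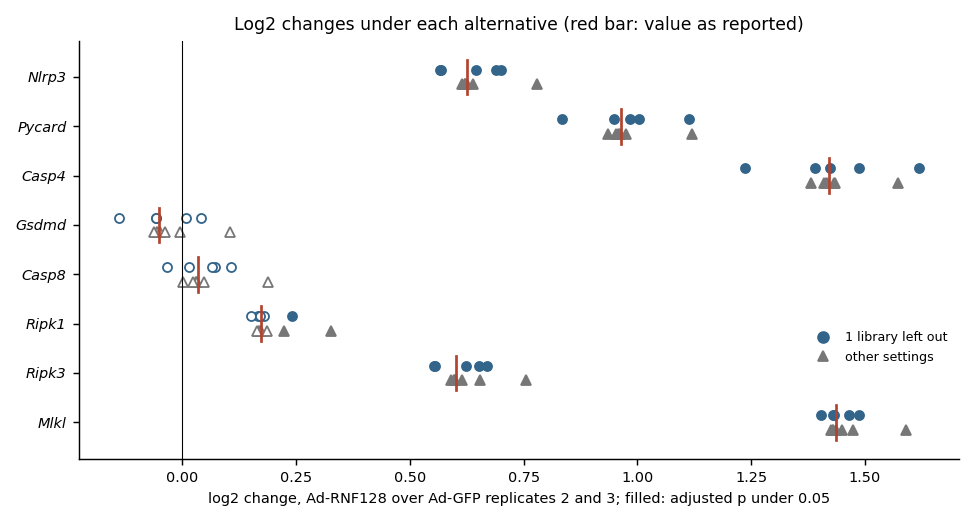
Log2 changes of the 8 tested genes over Ad-GFP replicates 2 and 3 when 1 more library is left out (circles) and under other settings (triangles). Filled symbols passed the threshold, and red bars are the values given in the text. Mlkl stays between 1.40 and 1.59 and Ripk3 between 0.55 and 0.76, while Gsdmd and Casp8 lie on both sides of 0.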

How the data were processed

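The values deposited by the authors are read counts per gene, 1 table per library, from polyA RNA. HTSeq 0.13.5, HISAT2 without a version, and the build mRatBN7.2 are listed per the submitters' processing notes. The strand setting was not given in the sources used here. The deposited table of Ad-GFP replicate 1 holds 1 value that is not whole and was handled as estimated counts, rounded to whole numbers. CPM is the count times 1000000 over the library total. Genes were compared in R 4.3.3 by edgeR 4.0.16 (filterByExpr, TMM, quasi-likelihood F-test, Benjamini-Hochberg over all genes tested, threshold 0.05), over all 6 libraries and, refitted, without Ad-GFP replicate 1, where the spread is pooled over both groups. The SE was derived from the log2 change and its F statistic. Totals of 16352843 to 21708973 counts limit the precision of genes with few reads. Their 95% intervals are exact conditional intervals of the count ratio, and a count of 0 allows up to 3 counts. Both cover counting error only.

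The members, the lists, the tests and the decision to show Ad-GFP replicate 1 separately were chosen with earlier results of these data known. All 10 members are named, and some other items are not reported here. From each pathway list the rule names the 3 genes with the smallest p among those that passed with a mean of at least 1 CPM without Ad-GFP replicate 1, and other genes named were chosen after their values were seen. Other settings tried were leaving out each library, a block for the replicate number, DESeq2 1.42.0, limma-voom (limma 3.58.1), scaling by median-of-ratios factors or by library totals only, no low-count filter, and a stricter one (10 counts in 3 libraries and a mean of 1 CPM). The fits were tested on simulated data. Gene names are those of the tables. Promoter sequences are RefSeq's, build GRCr8, and no coordinates were converted.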

Additional observations from a re-analysis of the deposited data

How the results depend on the processing

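Against Ad-GFP replicates 2 and 3, the same 5 members were called under all 12 alternatives, which gave 5 or 6 members called. Ripk1 joined them with library totals only, with the replicate block and without replicate 1 labelled Ad-RNF128, and Casp1 without Ad-GFP replicate 2. Over all 6 libraries the count of members called was 0. It was 1 with DESeq2, which called 244 genes higher and 142 lower over all genes tested. Leaving out 1 library gave 0 to 5, the 5 being without Ad-GFP replicate 1. The median log2 change over all genes was 0.35 with library totals only and -0.02 with TMM over all 6 libraries, and 0.17 and 0.01 without Ad-GFP replicate 1. Library totals only also called 5 genes of membrane rupture and repair, against 3.

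Over all 6 libraries the sign of the log2 change of some genes depended on which library was left out. Leaving out 1 library at a time gave -1.54 to 0.96 for Pycard, -0.495 to 0.081 for Casp6, -2.59 to 1.02 for Ninj1, -0.70 to 0.67 for Chmp2a, -1.94 to 0.29 for Chmp4b, -0.47 to 0.61 for Il18bp, -0.94 to 0.94 for Rnf31 and -0.81 to 0.33 for Ppif. The other sign was that without Ad-GFP replicate 1, and for Casp6 that without Ad-GFP replicate 2. Scaling by library totals only turned it to 0.11 for Casp6, 0.48 for Chmp2a, 0.60 for Il18bp, 0.43 for Rnf31 and 0.27 for Ppif, and limma-voom turned it to 0.089 for Chmp2a, 0.04 for Il18bp and 0.19 for Rnf31. For Pgam5 it was -0.16 both with DESeq2 and with its size factors in edgeR. Against Ad-GFP replicates 2 and 3 Gsdmd was at 0.10 with library totals only and ranged between -0.14 and 0.041 with 1 library left out, and Casp8 ranged between -0.034 and 0.11. Neither passed in any of them. The cause was not tested.

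Deviations of libraries with the same number, each from its group mean, correlated at -0.20, 0.027 and -0.17 for replicates 1, 2 and 3. Between libraries of different numbers the correlations ran from -0.198 to 0.206. Ad-GFP replicate 1 weighs on the deviations of all Ad-GFP libraries, so these values cannot decide whether the replicate numbers are pairs. With the replicate block the members called were 0 over all 6 libraries and 6 against Ad-GFP replicates 2 and 3, where Ripk1 was at 0.22 (edgeR adjusted p = 0.0123), and the log2 changes of Il18bp and Rnf31 over all 6 libraries were 0.069 and 0.10. Depth limits Casp1 and Il18, with at most 14 and 4 counts in a library.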
